A study of Mus musculus with 24 samples.

Results

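The 10 genes of ion and water transport in colonocytes that were followed across the intestine of a *Guca2a* reporter mouse were the carbonic anhydrases *Car1*, *Car2* and *Car4*, the anion exchanger *Slc26a3*, the water channels *Aqp4* and *Aqp8*, the sodium channel subunits *Scnn1a*, *Scnn1b* and *Scnn1g*, and the potassium pump subunit *Atp12a*. They were chosen by name, with earlier results of these data known, as 10 of the 53465 genes counted. Of them, 9 were among the 15044 genes with enough reads to test. The gene left out was *Scnn1g*, with 5 reads in all. RNA was sequenced from epithelial cells of Guca2a-Venus mice, which carry a bacterial artificial chromosome in which the coding sequence of *Guca2a*, the guanylin gene, is replaced by the yellow fluorescent protein Venus. Cells were taken from duodenum, jejunum, ileum and colon and sorted by fluorescence into Venus-positive and Venus-negative cells, with 3 libraries in each of the 8 groups and 24 in all.

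Every group carried the transgene and none was treated, so the negative cells are the non-fluorescent epithelium of the same animals and not cells of a mouse without it. The line came from 1 founder, fluorescence reports the guanylin promoter within that construct, and dead cells, debris and cells with the leukocyte marker CD45 were removed in the sort. The colon sample took in the rectum, whereas each small intestinal sample was a short segment, and the mice ate standard chow. The study used 3 mice, but the labels do not say which library came from which mouse, so libraries were not paired. Library numbers follow the order of deposit and only name a library. The p-values measure the spread among libraries of the same group, pooled over the 8 groups. Each library is a bulk of cells. A higher level in a group can come from more cells of a type or from more RNA in each cell. These cannot be told apart here. The paper found Venus-positive cells of the duodenum to be largely Paneth and goblet cells. Those of jejunum and ileum were mostly mature enterocytes, and those of the colon appeared to be mostly mature colonocytes. Positive cells of different regions are thus different mixtures.

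The colon recovers salt and water that reach it from the ileum. Carbonic anhydrases inside the colonocyte turn carbon dioxide and water into protons and bicarbonate, the apical exchangers trade these for sodium and chloride, and water follows. In the distal colon, sodium also enters through the epithelial sodium channel, which is assembled from alpha, beta and gamma subunits and is under the control of aldosterone. Slc26a3 is the apical chloride and bicarbonate exchanger that is lost in congenital chloride diarrhoea. Guanylin, the product of *Guca2a*, acts through its receptor to favour chloride and bicarbonate secretion into the lumen.

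On GRCm38, *Car1* lies at chr3:14766216-14808368 on the minus strand and *Car2* on the same chromosome at chr3:14886273-14900770 on the plus strand. The other genes named by position here are on plus strands, with *Car4* at chr11:84957786-84966044, *Slc26a3* at chr12:31390871-31473917, *Aqp8* at chr7:123462291-123468004, *Scnn1a* at chr6:125320659-125344943 and *Atp12a* at chr14:56365068-56388550. *Scnn1g* at chr7:121734479-121768475 and *Scnn1b* at chr7:121865038-121918514 lie close together on that chromosome. Counts are given per gene, so no isoform is told apart.

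The sequences before the start sites of *Slc26a3*, *Car4* and *Aqp8* are shown because these 3 genes were higher in the positive cells of the colon and because they are the genes among them with an entry in the RefSeq promoter table (GRCm38.p6). Each line begins 250 bases before the RefSeq start of the transcript and ends at the base before that start, or before the first GENCODE exon where this begins a few bases earlier, on the plus strand and 5′ to 3′. Capitals mark matches to CAAAGNNCA, a half-site that resembles those of the nuclear receptor HNF4, and to TATAAA, the TATA box.
Slc26a3 chr12:31437969-31438216: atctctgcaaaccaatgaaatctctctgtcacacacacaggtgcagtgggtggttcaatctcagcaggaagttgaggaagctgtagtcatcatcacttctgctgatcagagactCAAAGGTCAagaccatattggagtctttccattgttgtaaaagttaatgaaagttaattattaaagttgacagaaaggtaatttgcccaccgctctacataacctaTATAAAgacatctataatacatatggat
Car4 chr11:84957504-84957753: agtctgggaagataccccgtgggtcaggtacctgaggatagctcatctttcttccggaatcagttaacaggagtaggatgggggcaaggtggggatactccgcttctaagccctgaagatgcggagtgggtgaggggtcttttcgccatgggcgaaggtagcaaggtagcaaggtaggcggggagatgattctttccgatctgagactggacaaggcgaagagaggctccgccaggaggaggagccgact
Aqp8 chr7:123462044-123462290: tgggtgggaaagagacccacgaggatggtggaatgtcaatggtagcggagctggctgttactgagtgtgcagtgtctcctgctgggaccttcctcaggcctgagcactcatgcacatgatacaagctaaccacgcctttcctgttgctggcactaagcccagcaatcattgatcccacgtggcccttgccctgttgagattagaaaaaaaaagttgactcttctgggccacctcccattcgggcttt

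Both matches lay before *Slc26a3*, with caaaggtca at bases -136 to -128 and tataaa at bases -30 to -25 counted from the RefSeq start, which lies a few bases beyond the end of the line shown. On either strand, CAAAGNNCA stood in 5.49% and TATAAA in 12.4% of 32851 promoter windows of the same length. The letters of TTTATNG, which resemble caudal-type sites, were in 9.81% of all windows, the steroid receptor palindrome was in 0.387%, and neither was in the windows of the 5 members in the table, which also held *Scnn1b* and *Scnn1g*. The windows of *Car4* and *Aqp8* held none of the 4 motifs. These matches describe letters and not bound sites, and the *Slc26a3* window lies within the gene as GENCODE draws its longest transcript.

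As for depth, each library had between 7458616 and 23063124 reads on genes, and 3 reads, taken as the floor of detection, corresponded to 0.106 to 0.360 CPM, the count of a gene relative to all reads on genes. Levels are given as CPM scaled by TMM, and levels of different genes are compared only after division by the kilobases of exon. *Guca2a* itself was at at least 104 CPM in the positive libraries and 2.67 to 120.5 CPM in the negative ones, and it was higher in every positive library than in the negative libraries of its region. A list of 7 surface and absorptive epithelial markers, among them *Krt20* and *Vil1*, was summed. It came to 1417 to 2224 CPM in positive and 274 to 337 CPM in negative cells of the colon. In the duodenum the sums were 651.7 to 841.5 CPM in positive and 213 to 292 CPM in negative cells. They were 3244 to 4322 and 382 to 737 CPM in the jejunum, and 2410 to 4732 and 364 to 585 CPM in the ileum. Marker lists of red blood cells, which also hold carbonic anhydrase, and of glia and neurons, which also hold aquaporin 4, summed to at most 2.12 and 2.52 CPM in any library.

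Certain libraries stood apart before any comparison. In the ileum, the libraries numbered 1 of both sorts held *Car1* at 55.99 CPM in positive and 19.31 CPM in negative cells, against 0.515 to 2.34 CPM and 0.333 to 1.48 CPM in the others. The same positive library held *Aqp8* with 59 reads where the other ileum positive libraries had 0. Results that involve the ileum are given with and without these libraries where they differ, and the part they play in the others was not tested.

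**Figure D1:**
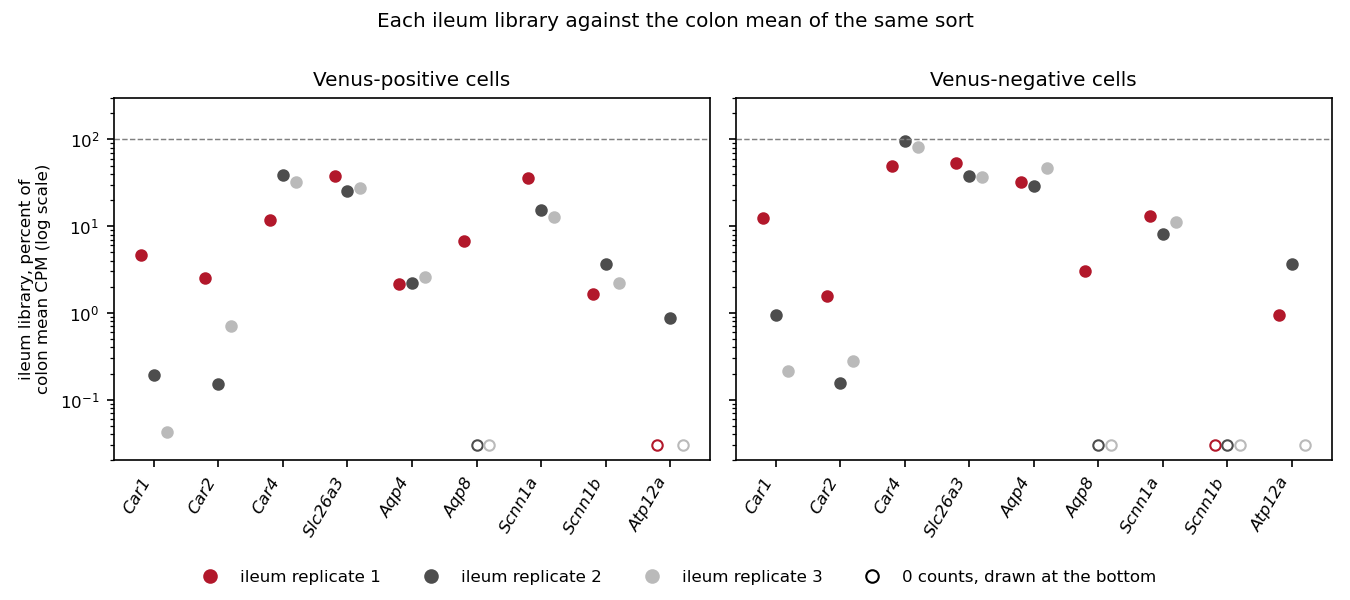
Each point is the level of a gene in 1 ileum library as a percent of the mean of the 3 colon libraries of the same sort, on a log scale, with open points for 0 reads and a dashed line at 100%. Ileum library 1, in red, lay above the other 2 for *Car1*, *Car2*, *Slc26a3*, *Aqp8* and *Scnn1a* in both sorts and below them for *Car4*.

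The first question was how the genes are placed along the intestine. In positive cells, 8 members were higher in colon than in duodenum, and all 9 tested members were higher than in jejunum and than in ileum, by the quasi-likelihood test of edgeR, adjusted after Benjamini and Hochberg over all genes tested. Over all genes, 6.53% were higher in colon than in duodenum, 19.5% than in jejunum and 11% than in ileum. In negative cells, 6 members were higher in colon than in each of the 3 small intestinal regions, where 4.59%, 3.78% and 2.22% of all genes were higher. Of these, *Aqp8* against the duodenum was lost with DESeq2 (5.18, adjusted p = 0.0615). *Aqp8*, *Scnn1b* and *Atp12a* could be tested mainly through the colon, where they have their reads, so that these counts are descriptions of the members. Between small intestinal regions, positive cells had 1 member higher and 2 lower in jejunum than in duodenum (14.8% and 18.4% of all genes), 3 higher and 2 lower in ileum than in duodenum (12.5% and 13.1%) and 2 higher in ileum than in jejunum (3%). Negative cells of jejunum and duodenum gave 0 calls by edgeR and by DESeq2 (0.725% of all genes by edgeR), with *Car2* at an unadjusted p under 0.05, and ileum gave 1 member lower than duodenum (2.7%) and 2 lower than jejunum (1.7%).

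Per kilobase of exon, the order of the members in colon positive cells began with *Car1* at 969 ± 98.8 CPM per kb (SD, n = 3). *Car4* at 79.5 ± 22.3 and *Car2* at 64.9 ± 14.4 came next and overlapped. *Aqp8* was at 29.9 ± 12.5, *Slc26a3* at 18.3 ± 2.79 and *Aqp4* at 13.5 ± 1.29 CPM per kb. Below these came *Scnn1a* at 8.21 ± 2.06, *Atp12a* at 3.43 ± 1.35 and *Scnn1b* at 1.25 ± 0.293 CPM per kb. Apart from *Car4* and *Car2*, the libraries of neighbours in this order did not overlap. The lengths take in all exons annotated for a gene, so the order of close genes, such as *Aqp8* and *Slc26a3*, depends on them. In colon negative cells *Car1* at 124.9 ± 59.4 and *Car2* at 74.8 ± 12.6 CPM per kb overlapped, *Aqp4* at 14.8 ± 1.63 and *Car4* at 8.46 ± 2.61 came next without overlap, and *Aqp8*, *Slc26a3*, *Scnn1a* and *Atp12a*, between 2.15 and 3.44 CPM per kb, overlapped with their neighbours.

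**Figure D2:**
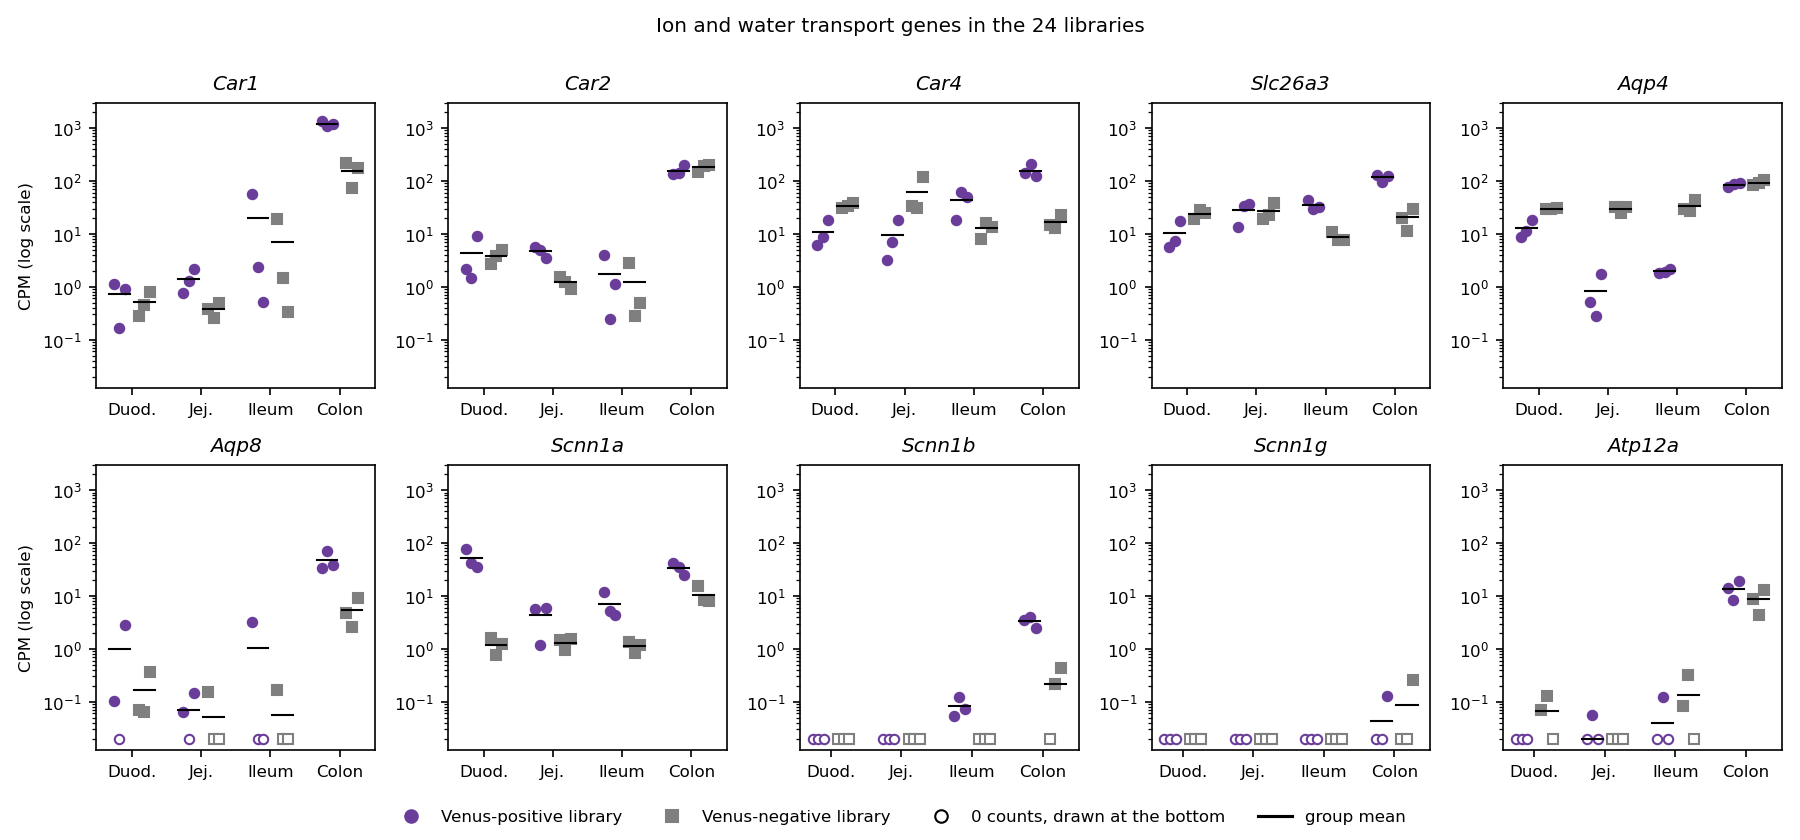
Levels of the 10 genes in all 24 libraries, in TMM-scaled CPM on a log axis, with circles for Venus-positive and squares for Venus-negative libraries, open symbols for 0 reads and bars for group means. *Car1*, *Car2*, *Aqp8*, *Scnn1b* and *Atp12a* were highest in the colon, *Scnn1a* was as high in duodenum positive cells, and *Aqp4* was lowest in positive cells of the jejunum and ileum.

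Among the carbonic anhydrases, *Car1*, a cytosolic enzyme abundant in colonocytes and red blood cells, was the most abundant in positive cells of the colon and showed a difference between the sorts. *Car1* stood at 1347, 1108 and 1174 CPM in the positive and 218, 74.05 and 175 CPM in the negative libraries of the colon. All 3 positive libraries were well above the negative ones, and all 6 were above every library of the small intestine. In the colon, *Car1* was 7.76-fold higher in positive than in negative cells (2.96 on the log2 scale, SE 0.95, adjusted p = 0.0371, edgeR), where 9.31% of all genes were higher. This call was lost when any 1 of the 6 colon libraries was left out (log2 fold change 2.56 to 3.29, adjusted p 0.0508 to 0.140) and with DESeq2 (adjusted p = 0.0742).

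In the small intestine outside ileum libraries 1, *Car1* was at 0.164 to 2.34 CPM in every library of either sort. Colon positive cells were 1705-fold higher than duodenum positive cells in *Car1* (log2 fold change 10.74, SE 1.41, adjusted p = 1.32e-06, edgeR) and 860-fold higher than jejunum positive cells (9.75, SE 1.32, adjusted p = 9.84e-07). Against the ileum, the *Car1* difference was 5.94 on the log2 scale (SE 1.10, adjusted p = 0.000184) and 9.56 without ileum libraries 1 (adjusted p = 2.07e-10). A higher *Car1* level in ileum than in duodenum positive cells (by 4.80 on the log2 scale, adjusted p = 0.00339) and than in jejunum positive cells (3.81, adjusted p = 0.0292) rested on those libraries, and without them the values were 1.17 (adjusted p = 0.219) and 0.07 (adjusted p = 1). The second was also lost without jejunum positive library 1 or 2 (adjusted p = 0.140 and 0.115). In negative cells, *Car1* was 303-fold higher in colon than in duodenum and 407-fold higher than in jejunum (adjusted p = 2.94e-05 and 2.09e-05, edgeR). Against the ileum the log2 difference in negative cells was 4.46 (adjusted p = 0.00617, edgeR) and 7.43 without ileum libraries 1 (adjusted p = 2.09e-08).

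*Car2*, the fast cytosolic isoform found in many transporting epithelia, was also a colon gene but did not separate the sorts there. The positive libraries of the colon held 134, 139.9 and 197 CPM and the negative ones 146, 194 and 204 CPM. The 2 ranges overlapped widely. The difference on the log2 scale was -0.21 (SE 0.56, adjusted p = 0.867, edgeR). Every colon library was above every small intestinal library, where the highest value was 9.23 CPM, in duodenum positive library 3. In positive cells *Car2* was 37.4-fold, 33.2-fold and 87.2-fold higher in colon than in duodenum, jejunum and ileum (adjusted p = 1.40e-06, 7.76e-07 and 8.38e-08, edgeR), and in negative cells it was 47.1-fold, 149-fold and 148-fold higher (adjusted p = 7.18e-07, 3.50e-08 and 7.25e-08). Without ileum libraries 1 the log2 value against the ileum was 7.78 in positive (adjusted p = 9.13e-10, edgeR) and 8.98 in negative cells (adjusted p = 8.48e-10). Without duodenum positive library 3 the value against the duodenum was 6.45 in positive cells.

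Within the small intestine *Car2* was higher in positive cells of the jejunum. The positive libraries were at 5.69, 5.02 and 3.43 CPM and the negative ones at 1.52, 1.22 and 0.907 CPM. These groups did not overlap, and the log2 fold change was 1.96 (SE 0.67, adjusted p = 0.0184, edgeR), where 18.3% of all genes were higher. It was not past the threshold without jejunum positive library 1 or jejunum negative library 3 (adjusted p up to 0.0666).

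*Car4*, an isoform anchored to the outer face of the apical membrane, differed between the sorts in every region, but not in the same direction. In the duodenum it was at 6.04, 8.79 and 18.4 CPM in positive and 30.2, 32.9 and 38.7 CPM in negative libraries, and in the jejunum at 3.13, 7.03 and 18.1 CPM in positive and 33.4, 30.8 and 119.6 CPM in negative libraries. Every positive library was below every negative library in both regions. The log2 fold change was -1.62 in the duodenum (SE 0.52, adjusted p = 0.0311, edgeR) and -2.71 in the jejunum (SE 0.54, adjusted p = 0.000155). The duodenum call was lost without positive library 1 or 2 or negative library 2 or 3 (adjusted p 0.0619 to 0.148, edgeR) and with library size alone (adjusted p = 0.129). With 1 library left out the jejunum value ranged from -3.59, without positive library 3, to -1.77, without negative library 3. Among all genes, 8.08% were lower in positive cells of the duodenum and 25.6% in those of the jejunum.

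The order was the opposite in ileum and colon. *Car4* was at 18.5, 60.6 and 50.2 CPM in positive and 8.13, 16.1 and 13.6 CPM in negative cells of the ileum, and at 139, 206 and 124 CPM in positive and 14.6, 12.8 and 22.5 CPM in negative cells of the colon. Every positive library was above every negative one in both. On the log2 scale the difference was 1.77 in ileum (SE 0.52, adjusted p = 0.00744, edgeR), or 2.09 without ileum libraries 1 (adjusted p = 0.00789), and 3.23 in the colon (SE 0.55, adjusted p = 0.000153). The difference between the sorts itself differed between regions for *Car4*, by 3.40 on the log2 scale between ileum and duodenum (SE 0.74, adjusted p = 0.00253, edgeR), by 4.48 between ileum and jejunum (SE 0.75, adjusted p = 0.00436), by 4.85 between colon and duodenum (SE 0.75, adjusted p = 0.000155) and by 5.94 between colon and jejunum (SE 0.77, adjusted p = 2.21e-05). In these contrasts 10.5%, 0.266%, 3.62% and 9.69% of all genes passed the test.

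Along the intestine, *Car4* was highest in the colon in positive cells, and in negative cells the comparisons called ran the other way, both of them against the jejunum. In positive cells it was higher in colon than in duodenum, jejunum and ileum by 3.83, 4.06 and 1.86 on the log2 scale (adjusted p = 9.49e-06, 1.77e-06 and 0.00934, edgeR), the last of which was 1.38 without ileum libraries 1 (adjusted p = 0.0751) and 1.35 with library size alone (adjusted p = 0.0551). Without jejunum positive library 3 the value of colon against jejunum was 4.94 and that of ileum against jejunum 3.08. It was also higher in ileum than in duodenum (log2 fold change 1.97, adjusted p = 0.00652) and jejunum (2.20, adjusted p = 0.00951), the latter lost without jejunum positive library 1 or 2 or ileum positive library 2 (adjusted p 0.0530 to 0.0811). In negative cells it was lower in colon than in jejunum (log2 fold change -1.88, SE 0.52, adjusted p = 0.0157, edgeR), where 6.68% of all genes were lower, and lower in ileum than in jejunum (-2.28, SE 0.53, adjusted p = 0.0117), where 1.7% were. Without ileum libraries 1 the latter was -1.99 (adjusted p = 0.0958). Against duodenum and ileum, negative cells of the colon differed by -1.03 and 0.40 (adjusted p = 0.225 and 0.777, edgeR), the former past the threshold with the i5 index as a covariate (-1.39, adjusted p = 0.00869). Both lower values leaned on jejunum negative library 3, the highest of the 3, without which the colon value was -0.95 (adjusted p = 0.297) and the ileum value -1.34 (adjusted p = 0.280). The colon call was also lost without colon negative library 1 or 2 (adjusted p = 0.0670 and 0.126) and with DESeq2 (adjusted p = 0.0531), and the ileum call without ileum negative library 1 (-2.04, adjusted p = 0.113).

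**Figure D3:**
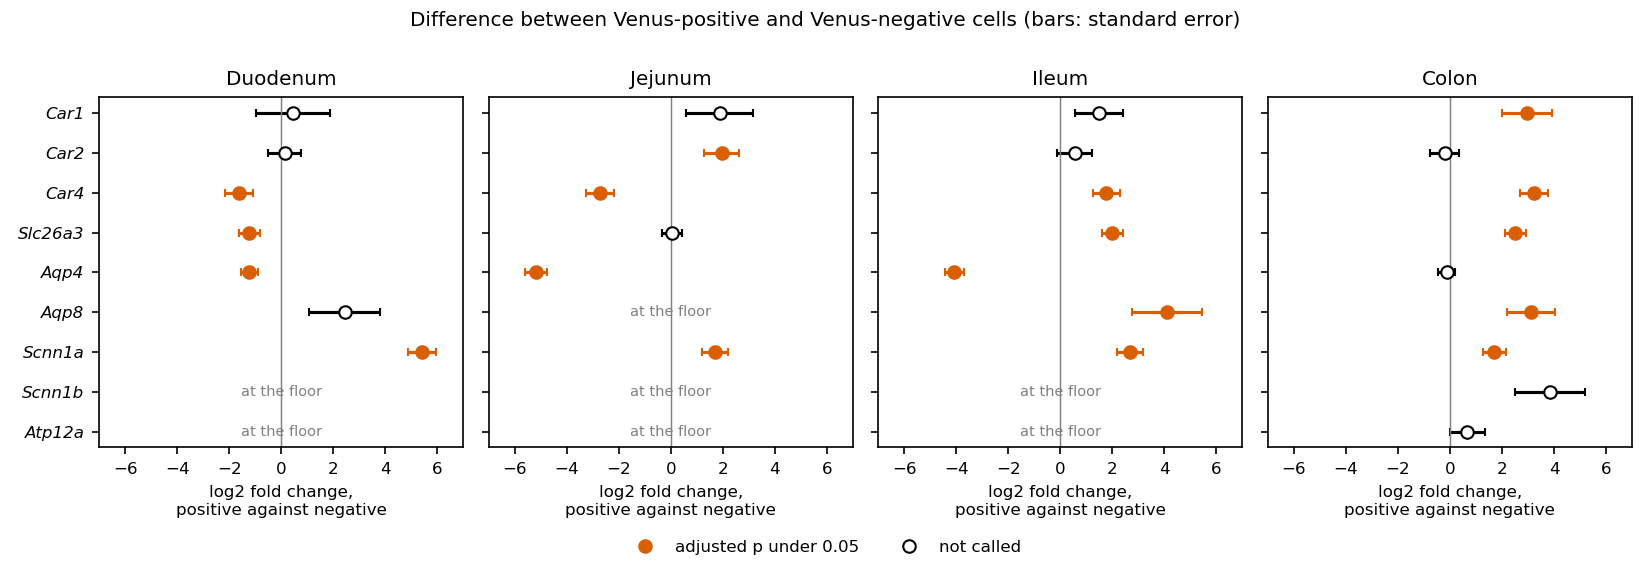
Log2 fold change between Venus-positive and Venus-negative cells of each region with its standard error, in orange where the adjusted p was under 0.05 and open where it was not, for the 9 genes tested. *Car4* and *Slc26a3* lay to the left in the duodenum and to the right in the ileum and colon, and *Aqp4* lay far to the left in the jejunum and ileum and near 0 in the colon.

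*Slc26a3*, the exchanger, followed the direction of *Car4* in the duodenum, ileum and colon. Its levels in the duodenum were 5.63, 7.31 and 17.8 CPM in positive and 18.8, 28.1 and 24.9 CPM in negative libraries. In the jejunum they were 13.4, 33.0 and 36.9 CPM in positive and 19.4, 22.7 and 38.3 CPM in negative libraries, which overlapped. *Slc26a3* was lower in positive cells of the duodenum (log2 fold change -1.23, SE 0.40, adjusted p = 0.0301, edgeR) and differed by 0.05 in the jejunum (SE 0.38, adjusted p = 0.932). The duodenum call was lost without positive library 1 or 2 or negative library 2 or 3 (adjusted p 0.0683 to 0.164, edgeR) and with library size alone (-0.75, adjusted p = 0.269).

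In the ileum *Slc26a3* was at 43.6, 29.5 and 31.7 CPM in positive and 10.9, 7.76 and 7.54 CPM in negative libraries, and in the colon at 129, 96.3 and 125 CPM in positive and 19.9, 11.5 and 29.9 CPM in negative libraries. The sorts did not overlap in either region. It was 3.99-fold higher in positive cells of the ileum (adjusted p = 0.000190, edgeR) and 5.71-fold higher in those of the colon (log2 fold change 2.51, SE 0.40, adjusted p = 7.74e-05). The signed difference, positive minus negative, was higher in ileum than in duodenum by 3.23 (SE 0.56, adjusted p = 0.000330, edgeR) and higher in colon than in duodenum by 3.75 (SE 0.56, adjusted p = 9.56e-05).

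Along the length of the intestine, *Slc26a3* in positive cells was 11.4-fold higher in colon than in duodenum, 4.20-fold higher than in jejunum and 3.34-fold higher than in ileum (adjusted p = 3.02e-07, 0.000133 and 0.00149, edgeR). Without duodenum positive library 3, the highest of its group, the log2 value against the duodenum was 4.17, and that between the sorts of the duodenum -1.89. It was already higher in jejunum and ileum than in duodenum (log2 fold change 1.45 and 1.78, adjusted p = 0.00547 and 0.00141), by 2.10 and 2.43 without duodenum positive library 3. In negative cells edgeR called no difference from the colon (-0.23, -0.39 and 1.22 against duodenum, jejunum and ileum), although the value against the ileum was past the threshold with DESeq2, RLE factors, no filter or protein-coding genes alone (1.31 to 1.36, adjusted p 0.00353 to 0.0344). The ileum was lower than the duodenum (-1.45, SE 0.39, adjusted p = 0.0257), where 2.7% of all genes were lower, and than the jejunum (-1.61, SE 0.39, adjusted p = 0.0193). The last of these was -1.76 without ileum libraries 1 (adjusted p = 0.0540), and with library size alone the 2 values were -0.79 and -1.01 (adjusted p = 0.229 and 0.159). The value against the duodenum lost its call without duodenum negative library 2 or 3 or ileum negative library 2 or 3 (-1.42 to -1.32, adjusted p 0.0710 to 0.125), and the value against the jejunum lost it without jejunum negative library 3 or ileum negative library 2 or 3 (adjusted p 0.0694 to 0.179). Colon negative library 2 was the lowest of its group for *Slc26a3*, and without it the value against the ileum was 1.64 (adjusted p = 0.0158).

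The water channels behaved unlike each other. *Aqp4*, which in the gut is placed on the basolateral membrane, was at 75.9, 85.6 and 91.7 CPM in positive and 82.7, 91.0 and 103 CPM in negative cells of the colon. The sorts overlapped, and the log2 fold change was -0.13 (SE 0.32, adjusted p = 0.853, edgeR). In negative cells of the small intestine *Aqp4* was at 25.0 to 42.7 CPM in all 9 libraries, with no call between those regions.

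Positive cells of the small intestine held less. *Aqp4* was at 8.60, 11.3 and 17.9 CPM in the duodenum, 0.511, 0.279 and 1.75 CPM in the jejunum and 1.83, 1.86 and 2.21 CPM in the ileum. In each region every positive library was below every negative one. *Aqp4* was lower in positive cells by log2 fold changes of -1.23 in the duodenum (SE 0.33, adjusted p = 0.0107, edgeR), -5.17 in the jejunum (SE 0.41, adjusted p = 3.47e-09) and -4.07 in the ileum (SE 0.38, adjusted p = 1.21e-08). In fold, these are 2.34-fold, 36.1-fold and 16.8-fold lower. The duodenum call was lost with library size alone (-0.77, adjusted p = 0.1585, edgeR) and without duodenum positive library 1 (-1.02, adjusted p = 0.0798). With 1 library left out the jejunum value ranged from -6.22 to -4.63, the former without jejunum positive library 3.

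The signed difference for *Aqp4*, positive minus negative, was closer to 0 in the colon than the mean of the 3 small intestinal regions, by 3.36 on the log2 scale (SE 0.39, adjusted p = 6.69e-06, edgeR), where 4.13% of all genes passed the test. It was also closer to 0 for duodenum than for the mean of jejunum and ileum, by 3.40 (SE 0.43, adjusted p = 4.62e-06, edgeR), where 17.5% did. Against the colon, positive cells of the duodenum, jejunum and ileum were 6.71-fold, 103-fold and 42.9-fold lower (adjusted p = 6.59e-07, 7.25e-13 and 2.35e-11, edgeR), and the log2 value of colon against jejunum was 7.73 without jejunum positive library 3. In negative cells the colon was 3.13-fold, 3.11-fold and 2.79-fold higher than these regions (adjusted p = 0.000664, 0.000706 and 0.00384), the last of which was lost with library size alone (1.04 on the log2 scale, adjusted p = 0.0558). A list of 5 stem and proliferating cell genes, with *Mki67*, *Olfm4* and *Lgr5*, summed to 32.1 to 289 CPM in positive and 1459 to 2382 CPM in negative cells of the jejunum and to 109 to 219 and 1010 to 3618 CPM in the ileum, and to 462 to 947 and 1629 to 2264 CPM in the duodenum, in the direction of *Aqp4*. In the colon the list summed to 40.4 to 42.1 CPM in positive and 62.7 to 173 CPM in negative cells. Other lists moved with the sort too. In the jejunum, 6 enteroendocrine cell genes summed to 25.7 to 48.6 CPM in positive and 349 to 1528 CPM in negative cells, 5 tuft cell genes to 2.11 to 5.02 and 10.2 to 40.6 CPM, and 6 genes of small intestinal enterocytes, in the opposite direction, to 21970 to 28070 and 2063 to 2583 CPM. In the colon, enteroendocrine genes summed to 145 to 303 CPM in positive and 476 to 818 CPM in negative cells. The part of these cells in the *Aqp4* difference was not tested.

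*Aqp8*, an apical and intracellular channel of surface colonocytes, was near the floor outside the colon. It was at 33.8, 69.9 and 37.9 CPM in positive and 4.67, 2.56 and 9.10 CPM in negative libraries of the colon. All positive libraries were above all negative ones, and the log2 fold change was 3.11 (SE 0.91, adjusted p = 0.0214, edgeR). The call was lost without colon positive library 2 (2.66, adjusted p = 0.148), colon negative library 1 (3.03, adjusted p = 0.0584) or colon negative library 2 (2.69, adjusted p = 0.0970), and with DESeq2 (adjusted p = 0.277), and the value was 3.73 without colon negative library 3.

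Of the 18 small intestinal libraries, 8 had no *Aqp8* read, and those above 1 CPM were duodenum positive library 3 at 2.81 CPM and ileum positive library 1 at 3.18 CPM. Against the jejunum, whose libraries were all at or under 3 reads, *Aqp8* in the colon was at least 245-fold higher in positive cells and at least 27.1-fold higher in negative cells, against a floor of 3 reads per library. As a description, since the gene had enough reads to test only through the colon, it was 51.2-fold higher in colon than in duodenum positive cells, and with 1 library left out the log2 value ranged from 5.04 to 9.77, the latter without duodenum positive library 3. Against ileum positive cells it was 42.4-fold higher, and that log2 value ranged from 4.84 to 12.46, the latter without ileum positive library 1, when no ileum positive read was left and the fitted value is no bound. The higher *Aqp8* level in positive than in negative cells of the ileum (log2 fold change 4.10, SE 1.35, adjusted p = 0.0170) rested on ileum positive library 1 and became -2.96 without it (adjusted p = 0.435). It was also lost without ileum negative library 2 or 3 (adjusted p = 0.0696 and 0.0556), and without both ileum libraries 1 no ileum library had a read.

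**Figure D4:**
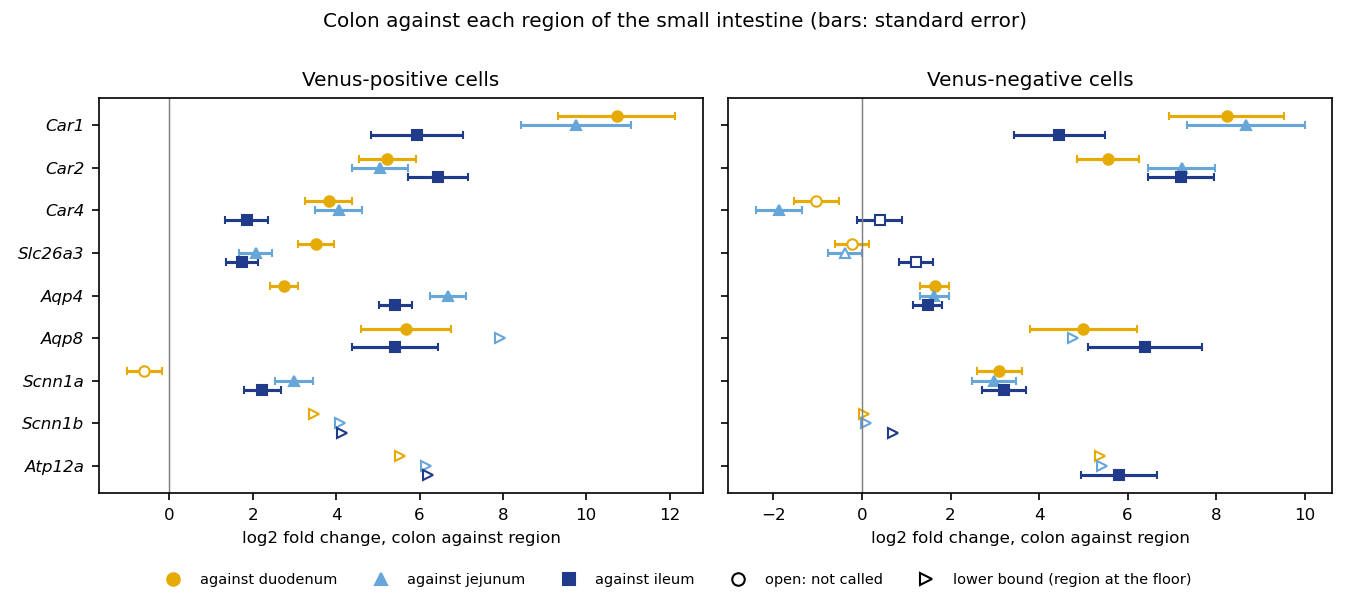
Log2 fold change of the colon against each region of the small intestine in Venus-positive (left) and Venus-negative cells (right), with standard errors, filled where the adjusted p was under 0.05 and with open triangles pointing right for lower bounds where the region was at the floor. In positive cells all points but *Scnn1a* against duodenum lay to the right of 0, and in negative cells *Car4* and *Slc26a3* lay on both sides of it.

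The sodium channel was split by subunit. *Scnn1a*, the alpha subunit, was detected in all 24 libraries, and it was higher in positive cells of all 4 regions. In the duodenum it was at 77.2, 41.9 and 35.5 CPM in positive and 1.61, 0.778 and 1.23 CPM in negative libraries. In the colon it was at 41.7, 35.2 and 24.8 CPM in positive and 15.1, 8.20 and 7.99 CPM in negative libraries. The sorts lay far apart in the duodenum and closer in the colon, without overlap. The log2 fold change was 5.41 in the duodenum (SE 0.54, adjusted p = 1.54e-08, edgeR), where 8.88% of all genes were higher, and 1.71 in the colon (SE 0.44, adjusted p = 0.00929), which was 1.51 without colon negative library 2 (adjusted p = 0.0581).

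Jejunum positive libraries held *Scnn1a* at 5.75, 1.17 and 5.98 CPM and negative ones at 1.44, 0.965 and 1.51 CPM, and ileum positive libraries at 12.1, 5.23 and 4.27 CPM and negative ones at 1.36, 0.846 and 1.16 CPM. Jejunum positive library 2 fell within the negative range, whereas the ileum did not overlap. The log2 fold change was 1.70 in the jejunum (SE 0.49, adjusted p = 0.00589, edgeR) and 2.68 in the ileum (SE 0.48, adjusted p = 6.31e-05), or 2.08 without ileum positive library 1. Duodenum exceeded the mean of jejunum and ileum in this difference by 3.22 (SE 0.60, adjusted p = 0.000369).

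*Scnn1a* was the tested member not called higher in colon than in duodenum positive cells, with a log2 fold change of -0.60 (SE 0.43, adjusted p = 0.425, edgeR) and overlapping libraries. It was higher in colon than in jejunum and ileum positive cells. With 1 library left out, those values ranged from 2.54 to 3.30 and from 1.97 to 2.83 and stayed called. Duodenum positive cells were 12.0-fold higher in *Scnn1a* than jejunum positive cells (adjusted p = 1.39e-06) and 7.13-fold higher than ileum positive cells (adjusted p = 3.46e-05). The latter, -2.83 as ileum against duodenum on the log2 scale, was -3.32 without ileum libraries 1 and -3.43 without ileum positive library 1 alone. A list of 6 goblet cell genes, among them *Muc2*, summed to 52140 to 58900 CPM in positive and 267 to 372 CPM in negative cells of the duodenum, 1800 to 4634 and 262 to 396 CPM in the jejunum, 4077 to 9465 and 259 to 320 CPM in the ileum, and 2524 to 3642 and 652 to 1313 CPM in the colon. A list of 5 Paneth cell genes, among them *Lyz1*, summed to 21330 to 51000 CPM in positive and 188 to 714 CPM in negative cells of the duodenum, to 1467 to 15550 CPM in positive cells of jejunum and ileum, and to 23.6 to 43.1 CPM in those of the colon. Both lists were highest in duodenum positive cells and lower in those of the colon, where the paper states that Paneth cells are absent. The part of these cells in the *Scnn1a* level was not tested. In negative cells, where the small intestine held at most 1.61 CPM, the colon was 8.58-fold, 7.90-fold and 9.21-fold higher than duodenum, jejunum and ileum (adjusted p = 4.48e-05, 7.06e-05 and 4.22e-05).

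*Scnn1b*, the beta subunit, was read only at low counts. The colon positive libraries were at 3.48, 3.96 and 2.45 CPM, with at most 56 reads each, and the negative ones at 0, 0.220 and 0.425 CPM. The sorts did not overlap, but the difference missed the threshold (log2 fold change 3.84, SE 1.35, adjusted p = 0.0671, edgeR), while the value with DESeq2 was past it (adjusted p = 0.0467), and so was that of edgeR fitted on the 2 colon groups alone (3.69, adjusted p = 0.0193). With 1 library left out the value ranged from 3.34, without colon negative library 1, to 4.68, without colon negative library 3. All 12 libraries of duodenum and jejunum had 0 reads, and colon positive cells were at least 11.1-fold, 17.1-fold and 17.6-fold higher than duodenum, jejunum and ileum. These folds and the difference between the sorts are descriptions, because the gene had enough reads to test only through colon positive cells. The gene overlaps *Cog7* on the other strand, and the strand setting of the counting is not given in the sources used here.

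*Scnn1g*, the gamma subunit, had 2 reads in 1 colon positive library and 3 reads in 1 colon negative library, and 0 in the other 22. No level or difference could be given at this depth. Per kilobase of exon in colon positive cells, *Scnn1a* at 8.21 ± 2.06 stood above *Scnn1b* at 1.25 ± 0.293 CPM per kb in all 3 libraries.

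*Atp12a* encodes the catalytic subunit of the non-gastric proton and potassium pump, which takes up potassium at the apical face of the distal colon. It was at 14.1, 8.21 and 19.0 CPM in positive and 8.63, 4.39 and 12.9 CPM in negative libraries of the colon. These overlapped, and the log2 fold change was 0.67 (SE 0.66, adjusted p = 0.563, edgeR). The labels do not tie libraries to mice, so these libraries were not paired. No small intestinal library exceeded 0.317 CPM, or 9 reads, and 12 of the 18 had none. In positive cells *Atp12a* was at least 46.4-fold, 71.5-fold and 73.5-fold higher in colon than in duodenum, jejunum and ileum, and in negative cells at least 41.8-fold and 43.1-fold higher than in duodenum and jejunum and 56.3-fold higher than in ileum, where the log2 value was 7.30 without ileum negative library 2. These too are descriptions, since the gene had enough reads to test only through the colon. A gene annotated on its opposite strand, *Gm10873*, overlaps it. The antisense gene *AC133525.2* overlaps *Aqp4*, and the pseudogenes *Gm16399* and *Gm9359* overlap *Car1* and *Slc26a3* on their own strand, so that reads could be shared.

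In the colon, then, 5 of the 9 members tested passed between the sorts. *Car1*, *Car4*, *Slc26a3*, *Aqp8* and *Scnn1a* were higher in positive cells, none was lower, and *Car2*, *Aqp4*, *Scnn1b* and *Atp12a* did not pass the test. Over all genes 9.31% were higher and 3.8% lower there. The split follows the threshold, and with DESeq2 *Car1* and *Aqp8* were not called (adjusted p = 0.0742 and 0.277). *Scnn1b* cannot be read as a test either way, since it had enough reads only in positive cells of the colon. In duodenum, 1 member was higher and 3 were lower, against 8.88% and 8.08% of all genes. For jejunum the members were 2 and 2, against 18.3% and 25.6%, and for ileum 4 and 1, against 17.9% and 20.6%, with *Aqp8* resting on 1 library. Mitochondrial genes took 32.3% to 46.6% of the reads on genes in positive and 64.6% to 76.4% in negative libraries of the duodenum, 47.1% to 60.6% and 61.2% to 78.8% in the jejunum, 41.0% to 55.4% and 64.7% to 70.9% in the ileum, and 68.6% to 77.9% and 65.3% to 80.7% in the colon, where alone the sorts overlapped. With nuclear protein-coding genes alone, no member's call between the sorts changed. The duodenum calls of *Car4*, *Slc26a3* and *Aqp4* were lost when CPM were scaled by library size alone (adjusted p 0.129 to 0.269), a change that moved the median of all genes there by 0.43 on the log2 scale, and that of *Aqp4* was also lost without duodenum positive library 1 (adjusted p = 0.0798, edgeR).

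The genes that shared the most similar pattern with each member over the 24 libraries are given by Pearson's r of log2 CPM, as descriptions of libraries that share regions and sorts. *Aqp4* was closest to *Sdc2* (r = 0.95) and *Abcc1* (r = 0.95), *Scnn1a* to *Spdef* (r = 0.95), the goblet cell transcription factor, and *Agr2* (r = 0.95), and *Atp12a* to *Pla2g4f* (r = 0.99). *Car1* was closest to *Abca12* (r = 0.95), *Car2* to *Pparg* (r = 0.93), *Car4* to *Rflnb* (r = 0.81), *Slc26a3* to *Gpi1* (r = 0.84) and *Scnn1b* to *Grin3a* (r = 0.98). Among the members themselves, *Car4* had *Slc26a3* (r = 0.78) and *Aqp8* had *Car1* (r = 0.92) among their 3 closest genes of all.

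Other genes of these pathways put the members in context. Of 7 genes for electroneutral sodium and anion exchange, 3 were higher in positive cells of the colon and none was lower, against 9.31% and 3.8% of all genes, and in the duodenum 2 were higher and none was lower, against 8.88% and 8.08%. Those called in the colon were *Slc9a3*, the main apical sodium and proton exchanger, at 76.2 ± 34.0 against 6.41 ± 4.94 CPM (log2 fold change 3.60, adjusted p = 0.000170, edgeR), its relative *Slc9a2* (2.53, adjusted p = 6.55e-05) and the scaffold *Slc9a3r1* (1.95, adjusted p = 0.000388). Positive cells had 6 of the 7 higher in jejunum, where 18.3% of all genes were higher, and 6 higher with 1 lower in ileum, where 17.9% were, led in each by the scaffold *Pdzk1* (log2 fold change 3.62 and 4.54, adjusted p = 1.78e-07 and 2.33e-08). *Pdzk1* and the anion exchanger *Slc26a6* were low in colon positive cells, at 0.522 ± 0.396 and 0.202 ± 0.176 CPM, against 252 ± 37.3 and 35.9 ± 7.70 CPM in jejunum positive cells (log2 fold change -8.86 and -7.37, adjusted p = 6.61e-13 and 2.19e-10), the opposite of *Slc26a3*.

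Of 11 genes for chloride and bicarbonate secretion, 2 were higher and 3 lower in positive cells of the colon, 2 and 6 for jejunum, 2 and 5 for ileum, and 1 and 3 for duodenum. Over all genes 9.31% were higher and 3.8% lower in the colon, 18.3% and 25.6% in jejunum, 17.9% and 20.6% in ileum, and 8.88% and 8.08% in duodenum. *Slc12a2*, the basolateral cotransporter that loads crypt cells with chloride, was at 95.5 ± 9.69 CPM in positive and 297 ± 45.0 CPM in negative cells in the colon (a log2 difference of -1.64, adjusted p = 0.00481, edgeR) and at 12.8 ± 11.3 and 152 ± 21.3 CPM in the jejunum (-3.57, adjusted p = 2.04e-07). The anion exchanger *Slc4a2* (2.15, adjusted p = 5.87e-06) and the potassium channel *Kcnma1* (2.18, adjusted p = 0.00824) were higher in positive cells of the colon. The potassium channel subunit *Kcne3* was lower in positive cells of the jejunum and ileum by log2 fold changes of -4.07 and -3.16 (adjusted p = 4.17e-06 and 7.06e-05, edgeR), in the same libraries in which *Aqp4* was low. *Kcne3* was also lower in the duodenum (-1.71, adjusted p = 0.0296). In the colon it was at 48.4 ± 31.4 against 125.8 ± 37.5 CPM, which was not called (-1.38, adjusted p = 0.0908).

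Of 7 genes of the aldosterone response and of sodium channel control, 3 were higher in positive cells of the colon and none was lower, against 9.31% and 3.8% of all genes. The counts were 2 and 0 for duodenum, 3 and 1 for jejunum, and 3 and 0 for ileum, against 8.88% and 8.08%, 18.3% and 25.6%, and 17.9% and 20.6% of all genes. *Nr3c2*, the mineralocorticoid receptor, was at 89.6 ± 20.1 against 23.0 ± 5.98 CPM there (log2 fold change 1.97, adjusted p = 4.37e-05, edgeR), and it was higher in positive cells of the other 3 regions too (1.36 in duodenum, 1.62 in jejunum and 2.02 in ileum, adjusted p = 0.00194, 6.04e-05 and 4.99e-06). *Nedd4l*, the ligase that removes the sodium channel from the membrane, and the kinase *Sgk1* were higher in positive cells of the colon by 1.27 and 1.24 (adjusted p = 0.00501 and 0.0151, edgeR). Neither was a colon matter alone, since *Sgk1* was higher by 3.21 in positive cells of the jejunum and 2.70 in those of the ileum (adjusted p = 1.78e-07 and 1.18e-06), and *Nedd4l* by 0.93 and 1.18 in those of duodenum and ileum (adjusted p = 0.0327 and 0.00246). *Hsd11b2*, which protects the receptor from glucocorticoids, was at 32.3 ± 5.41 CPM in positive cells of the colon against 1.12 ± 1.15 CPM in those of the duodenum (4.87, adjusted p = 1.81e-05, edgeR). It was the gene of this list that was lower in positive cells of the jejunum, at 0.167 ± 0.236 against 2.36 ± 2.79 CPM (-3.90, adjusted p = 0.000790, edgeR). The highest count was 6 reads in a positive and 92 in a negative library. In both groups the SD exceeded the mean, so the size of this value leans on uneven libraries.

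Other water channels and carbonic anhydrases were measured too. Of 4 other aquaporins tested, none was called between the sorts in the colon, where 9.31% of all genes were higher and 3.8% lower. In positive cells, 2, 4 and 2 of them were lower in colon than in duodenum, jejunum and ileum, against 5.84%, 14.4% and 10.7% of all genes. They included *Aqp1*, at 115 ± 65.2 CPM in jejunum and 21.5 ± 3.78 CPM in colon positive cells (a log2 difference of -2.42, adjusted p = 2.78e-06, edgeR), and *Aqp7* and *Aqp3*, which had at most 2 reads in any colon positive library. Between the sorts, 1 of the 4 was higher and 1 lower in positive cells of the duodenum, 3 and 0 in the jejunum, and 2 and 0 in the ileum, against 8.88% and 8.08%, 18.3% and 25.6%, and 17.9% and 20.6% of all genes. Those of the jejunum were *Aqp7* (log2 fold change 3.74, adjusted p = 0.000111, edgeR), *Aqp3* (3.71, adjusted p = 0.00285) and *Aqp1* (2.11, adjusted p = 1.36e-05). Of 4 other carbonic anhydrases tested, *Car8*, a relative without enzymatic activity, was the one higher in positive cells of the colon (1.15, adjusted p = 0.0419, edgeR). None was lower there, against 9.31% higher and 3.8% lower among all genes. *Car8* was also higher in those of the duodenum (2.60, adjusted p = 2.71e-05, edgeR) and lower in those of the jejunum and ileum (-1.57 and -0.99, adjusted p = 0.00179 and 0.0382). Between the sorts, 1 of the 4 was higher and 1 lower in positive cells of the duodenum, 0 and 3 in the jejunum, and 0 and 2 in the ileum. Over all genes these shares were 8.88% and 8.08%, 18.3% and 25.6%, and 17.9% and 20.6%. *Car12* was higher in colon than in duodenum positive cells (2.99, adjusted p = 1.37e-05). Of these 4, 1, 3 and 2 were higher in colon than in duodenum, jejunum and ileum positive cells, and 1 was lower than in jejunum, against 6.53%, 19.5% and 11% of all genes higher and 14.4% lower.

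Of 3 genes for uptake of short-chain fatty acids none was called between the sorts in the colon, where 9.31% of all genes were higher and 3.8% lower. In positive cells 2, 1 and 1 of them were higher in colon than in duodenum, jejunum and ileum, against 6.53%, 19.5% and 11% of all genes, and 1 was lower than in ileum, against 10.7%. *Slc16a1* was higher in colon than in duodenum, jejunum and ileum positive cells (1.89, 1.91 and 1.80, adjusted p = 0.000192, 6.72e-05 and 0.000256, edgeR). *Slc5a8* was higher in colon than in duodenum positive cells (7.32, adjusted p = 5.96e-10, edgeR) and lower in colon than in ileum positive cells (-1.57, adjusted p = 0.00923).

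**Figure D5:**
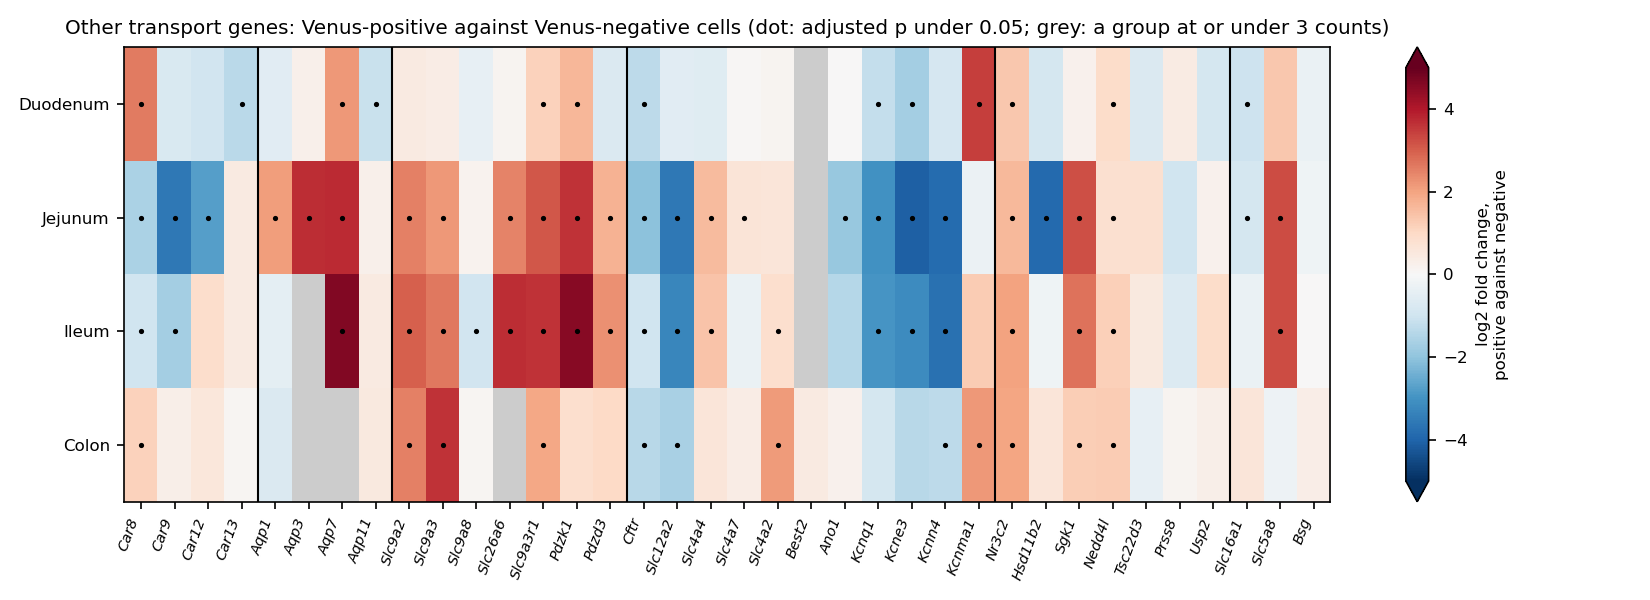
Log2 fold change between Venus-positive and Venus-negative cells for the tested genes of 6 other transport lists, separated by black lines in the order of other carbonic anhydrases, other aquaporins, electroneutral exchange, chloride and bicarbonate secretion, aldosterone response and fatty acid uptake, with a dot where the adjusted p was under 0.05 and grey where a group was at or under 3 reads in every library. Most exchange genes are red and most of the potassium channel genes and *Slc12a2* blue in the jejunum and ileum.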

How the data were processed

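RNA was sequenced as single-end reads of 50 bases from 24 libraries made with a SMARTer stranded total RNA pico kit. The deposited values are raw counts of reads per gene that the authors made with STAR 2.5.1 on GRCm38 after CASAVA, per the submitters' processing notes; the strand setting of the counting is not given in the sources used here. Each library had between 7458616 and 23063124 reads on genes, 39.4% to 75.8% of reads were in rows that name no gene and stayed out of library sizes and tests, and 32.3% to 80.7% of the reads on genes were mitochondrial (median 65.0%). These depths limit genes near the floor of 3 reads.

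Gene names, positions and exon lengths came from GENCODE M21 (53360 of 53465 genes) and promoters from RefSeq (GRCm38.p6), with entries for 5 of the 10 members. Groups came from the tissue and sort in the labels. Counts were tested with edgeR 4.0.16 (R 4.3.3): genes passed filterByExpr with a minimum count of 10 and total of 15, were scaled by TMM, and were fitted in 1 quasi-likelihood model of 8 groups, with p-values adjusted by Benjamini-Hochberg over 15044 genes and called under 0.05. Standard errors were derived from the F statistic. The script was tested on simulated counts. Figures were drawn with Python 3.11.15 and matplotlib 3.10.9.

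The alternatives were DESeq2 1.42.0, RLE factors, library size alone, no filter, the i5 index as a covariate, nuclear protein-coding genes alone, only the groups compared and each library left out. Leaving out both ileum libraries numbered 1, and the differences between the sorts compared between pairs of regions, were added after seeing the data. The members and lists were chosen with earlier results of these data known. The rule named all 10 members in every comparison, though values are printed mainly for those called or discussed. Of the other lists, values are printed for at most the 3 called genes with the largest change in a comparison, and for *Kcne3* in the colon, which was not called. For each member, the genes with the highest correlation over the 24 libraries are printed. The sodium pump list and 1 correlated gene are not reported here. Pairs of replicates differed by more than sampling noise (chi-square per degree of freedom 23.7 to 154).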

Additional observations from a re-analysis of the deposited data

Results flagged for a closer look

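The difference between Venus-positive and Venus-negative cells was not the same in every region for 4 of the genes, by edgeR's quasi-likelihood test of the difference itself. All values here are signed, positive minus negative cells, so that a higher value can be one that is less negative. Between the colon and the mean of the 3 small intestinal regions, the difference was higher in the colon for *Car4* by 4.08 on the log2 scale (SE 0.62, adjusted p = 0.000228), for *Slc26a3* by 2.24 (SE 0.45, adjusted p = 0.00379) and for *Aqp4* by 3.36 (SE 0.39, adjusted p = 6.69e-06). Between the duodenum and the mean of jejunum and ileum, it was higher in the duodenum for *Aqp4* by 3.40 (SE 0.43, adjusted p = 4.62e-06) and for *Scnn1a* by 3.22 (SE 0.60, adjusted p = 0.000369). For *Slc26a3* it was -2.26 (SE 0.48, adjusted p = 0.00145). Over all genes, 4.13% passed between colon and small intestine and 17.5% between the duodenum and the mean of jejunum and ileum.

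Between pairs of regions, in contrasts added after seeing the data, the difference for *Car4* was higher in ileum than in duodenum by 3.40 (SE 0.74, adjusted p = 0.00253), in ileum than in jejunum by 4.48 (SE 0.75, adjusted p = 0.00436), in colon than in duodenum by 4.85 (SE 0.75, adjusted p = 0.000155) and in colon than in jejunum by 5.94 (SE 0.77, adjusted p = 2.21e-05). For *Slc26a3* it was higher in ileum than in duodenum by 3.23 (SE 0.56, adjusted p = 0.000330), in colon than in duodenum by 3.75 (SE 0.56, adjusted p = 9.56e-05) and in colon than in jejunum by 2.46 (SE 0.55, adjusted p = 0.00437). For *Aqp4* the value was -3.95 for jejunum against duodenum (SE 0.51, adjusted p = 1.74e-05), -2.84 for ileum against duodenum (SE 0.48, adjusted p = 0.000280), 5.05 for colon against jejunum (SE 0.51, adjusted p = 5.99e-07) and 3.94 for colon against ileum (SE 0.48, adjusted p = 1.84e-05). For *Scnn1a* it was -3.71 for jejunum (SE 0.70, adjusted p = 0.000738), -2.73 for ileum (SE 0.68, adjusted p = 0.00822) and -3.70 for colon (SE 0.66, adjusted p = 0.000663), each against duodenum. Over all genes 14.6% passed for jejunum against duodenum, 10.5% for ileum against duodenum and 3.62% for colon against duodenum. The shares were 0.266% for ileum against jejunum, 9.69% for colon against jejunum and 2.79% for colon against ileum. All 20 values kept their direction and their call with each library left out in turn, but some moved by over 1.5 times in fold. *Car4* ranged from 3.54 to 5.36 for ileum against jejunum and from 5.01 to 6.83 for colon against jejunum, the lower without jejunum negative library 3 and the higher without jejunum positive library 3. Without duodenum positive library 3, *Slc26a3* was 3.88 for ileum against duodenum, 4.41 for colon against duodenum and -2.91 for duodenum against the mean of jejunum and ileum. *Aqp4* ranged from 4.45 to 6.11 for colon against jejunum, the lower without jejunum positive library 2 and the higher without jejunum positive library 3, which also gave -4.99 for jejunum against duodenum. *Scnn1a* was -3.33 for ileum against duodenum without ileum positive library 1. What these differences come from was not tested.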

How the results depend on the processing

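Over single members 109 results were followed, of which 86 were called. They took in each member with neither group at the floor between the sorts, in colon against each region and in the planned differences between the sorts, but from the comparisons among small intestinal regions and between pairs of regions the called results alone. Of the 109, 74 kept their direction and their side of the threshold under every alternative tried and 87 under every alternative that kept all libraries. DESeq2 changed 8, no filter 7, library size alone 7, leaving out both ileum libraries numbered 1 changed 5, the i5 index 2, only the groups compared 2, RLE factors 1, protein-coding genes 1 and the omission of a single library 30. The cause of these changes was not tested. No paired analysis was made because the labels give no mouse or replicate number, and the library numbers used here only follow the order of deposit. That order runs in consecutive sets with 1 library of every group. Whether a set is 1 mouse is not stated, and no fit with these sets as a block was made. With 3 libraries a group, levels near 3 reads limit *Scnn1b*, *Scnn1g*, *Aqp8* and *Atp12a* in the small intestine.

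The number of members called moved by over 1.5 times under at least 1 alternative in the comparisons that follow, and alternatives that kept it within 1.5 times are not listed. All genes called are given in brackets where counted. Between the sorts it was 4 in the duodenum (2552), 1 with library size alone (2617) and 1 to 4 with a library left out, and 5 in the colon (1972), 2 to 4 with a library left out. In positive cells, ileum against jejunum gave 2 (775), 4 with no filter (968), 1 with only the groups compared (619) and 0 to 3 with a library left out. In negative cells, jejunum against duodenum gave 0 by edgeR (1 of 9, *Car2*, had an unadjusted p under 0.05) and 1 with no filter, where all genes called were 109 and 235. In negative cells, ileum against duodenum gave 1 (662), 2 with DESeq2 (1007), 4 with no filter (855), 3 with the i5 index (1146), 3 with only the groups compared (965), 2 without both ileum libraries 1 (408) and 0 to 2 with a library left out, and ileum against jejunum gave 2 (317), 0 without both ileum libraries 1 (179) and 0 to 2 with a library left out. For the difference between the sorts in colon against small intestine it was 3 (621), and 5 with no filter (839).

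With 1 library left out, these log2 fold changes changed sign over the range given. Between the sorts in the duodenum they were *Car1* (-0.048 to 0.99), *Car2* (-1.10 to 0.55) and *Aqp8* (-1.66 to 3.60), in the jejunum *Slc26a3* (-0.21 to 0.40) and in the ileum *Car1* (-2.27 to 4.35), *Car2* (-0.91 to 2.23) and *Aqp8* (-2.96 to 7.03). In negative cells they were *Slc26a3* in colon against duodenum (-0.63 to 0.17) and jejunum (-0.79 to 0.064), and for the difference between the sorts in duodenum against jejunum and ileum *Car1* (-2.66 to 0.66). Of these, *Aqp8* in the ileum was the one past the threshold with all libraries. *Car1* in the ileum was past it at both ends of its range, without positive library 1 (-2.27, adjusted p = 0.0444, edgeR) and without negative library 1 (4.35, adjusted p = 0.00185), and with no filter (1.52, adjusted p = 4.12e-05).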
